A study of Mus musculus with 15 samples.

Results

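Peptidases of the brush border were followed through 15 mouse kidneys, together with villin, the actin-bundling protein of the microvilli on which they sit. The set holds 7 of the 54532 genes in the deposited table, namely Ggt1, Dpep1, Anpep, Dpp4, Mep1a, Mep1b and Vil1. Members were found by looking up each Ensembl identifier in the GENCODE M21 annotation of the mouse genome build GRCm38, and every member had exactly 1 row. Of the 7 genes, 6 encode peptidases, and Vil1 was kept as the structural gene of the same membrane. All 7 had a value above 0 in at least 5 of the 10 libraries of each comparison, so none was lost to the filter on low values.

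The study asked how asiatic acid (AA), a triterpene from Centella asiatica, acts on kidney disease caused by dietary adenine. All kidneys came from male C57BL/6 mice aged 8 weeks at the start, with 5 mice in each group. The C group ate a normal diet, and the M group received chow with 0.25% adenine for 4 weeks. M mice then returned to standard food as well, and the kidneys of all groups were taken after week 8. Mice of the AA group ate the same adenine chow and were gavaged daily with 30 mg/kg AA, the high dose of the study, and gavage went on after the return to standard food until week 8. Per the methods, C and M mice were gavaged with the vehicle, a solution of DMSO in saline. The model is dietary and acts on the whole animal, and every library is whole kidney, so that all cell types of the organ contribute to each value.

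The brush border is the dense carpet of microvilli on the lumen side of proximal tubule cells. Its peptidases face the filtrate and cut filtered peptides and glutathione into amino acids and dipeptides, which transporters of the same membrane then take up. Ggt1 and Dpep1 act one after the other on glutathione, Anpep and Dpp4 trim peptides from their amino end, and the meprins Mep1a and Mep1b cut inside the chain. In the kidney these genes are known mainly as products of the proximal tubule, although Dpp4 and Anpep are also made by other cells.

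Values are FPKM (fragments scaled by exon length and by library, which makes levels comparable between genes of different length). The libraries held 13647036 to 28884453 fragments, as recovered from the steps between FPKM values, and 2077644 to 13576621 outside the mitochondrial genome. A factor of 2 in these fragment numbers could not be settled. The mitochondrial share of fragments was 53.0 to 62.5% for C, 64.0 to 86.8% for M and 69.2 to 87.2% for AA libraries. M mice 1 to 3 stood apart, with 11551, 10068 and 12222 genes above 0 against 18695 to 25460 in every other library. Values from a reduced M group of mice 4 and 5 are therefore given beside the members' results and the named genes called in comparisons with the M group. Proximal tubule markers were present in every group. The summed FPKM of 15 of them ranged from 3232 to 13565 over the C kidneys, from 104 to 615 over the M kidneys and from 237 to 612 over the AA kidneys.

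The members' levels moved apart from each other, so the stretches before their transcription starts were read for the motifs of HNF1 and HNF4, transcription factors known for driving proximal tubule genes. RefSeq (GRCm38.p6) gave 9 start windows for 6 of the 7 members, 4 of them for Ggt1, and none for Mep1b. In the 250 bases before each start, both strands were searched for the HNF1 motif GTTAATNATTAAC with at most 3 mismatches and the HNF4 motif CAAAGTCCA with at most 1 mismatch. Of all 32851 windows, 7.58% held the first and 7.05% the second. Windows of Ggt1 and Dpep1 held the HNF1 motif, and these stretches are shown for that reason alone. Matches are in capitals. The Ggt1 stretch lies on the plus strand at chr10:75573245-75573328, within the span of the gene and upstream of RefSeq start 4. Its HNF1 match begins 239 bases and its HNF4 match 195 bases before that start. The Dpep1 stretch lies on the plus strand at chr8:123186078-123186130, before the first base of the gene in GENCODE M21, with its HNF1 match 137 bases before the start.
Ggt1 start 4: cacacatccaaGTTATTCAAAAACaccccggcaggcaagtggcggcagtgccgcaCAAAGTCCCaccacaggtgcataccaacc
Dpep1: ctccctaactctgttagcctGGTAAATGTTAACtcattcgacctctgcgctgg
Both HNF1 matches carry 3 mismatches and the HNF4 match carries 1. The first Ggt1 window also held an HNF4 match, 41 bases before its start. No match was found in the windows of Mep1a, Vil1, Dpp4 or Anpep, which says only that these letters are not in those windows.

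In the adenine kidneys, the 7 genes were all on average lower than in the C group (but for Dpp4 after centring on library medians, and Dpp4 and Anpep with M mice 4 and 5 alone), and the difference passed the test for Ggt1 and Mep1b. Differences were tested with limma on log2(FPKM + 1), and a call needed a p of at most 0.05 after Benjamini-Hochberg adjustment across the tested genes, together with a log2 fold change of 1 or more up or down. In M vs. C, 2 of the 7 members were called, both lower, where 1.11% of the 21153 genes tested were called lower. The values of 3 members lay lower without overlap between the 5 M and the 5 C kidneys (Ggt1, Mep1b and Mep1a), against 3.67% of all genes. Both calls were lost with a pseudocount of 0.1 and with no filter on low values, and library quality weights left that of Mep1b. With TPM, Mep1a and Vil1 were called lower as well, and with all 15 libraries in 1 fit Mep1a was. The median log2 fold change of the members was −1.28, and that of all genes −0.12. Scaling each library to an equal total (TPM) put the median of all genes at −0.58 and that of the members at −2.22, and centring libraries on their medians put them at 0.24 and −0.92.

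In the AA vs. M comparison, Mep1a was the 1 member called, and it was higher in the AA group. Of the 19798 genes tested, 11.7% were called higher, and the groups did not overlap, in the higher direction, for 11.9%. Mep1a was also the 1 member without overlap. The members' median log2 fold change was 0.28, beside 0.17 for all genes. With TPM these medians were 0.19 and 0.12, and after centring both were negative, at −0.23 and −0.35.

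Against the normal diet, the treated kidneys were lower in Ggt1, Mep1b and Vil1, while the other 4 members did not pass the test. These 3 of 7 were called lower in AA vs. C, where 9.61% of 21898 genes were, and the same 3 were lower without overlap, against 12.5% of all genes. The members' median log2 fold change was −0.50, and that of all genes 0.09. With TPM they were −1.56 and −0.39, and after centring −0.66 and −0.06. M vs. C and AA vs. C share the C kidneys, and AA vs. M shares a group with each of them, so the comparisons are set side by side below and are not independent of each other. In whole-kidney RNA, fewer brush border cells and less RNA per cell cannot be told apart.

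**Figure D1:**
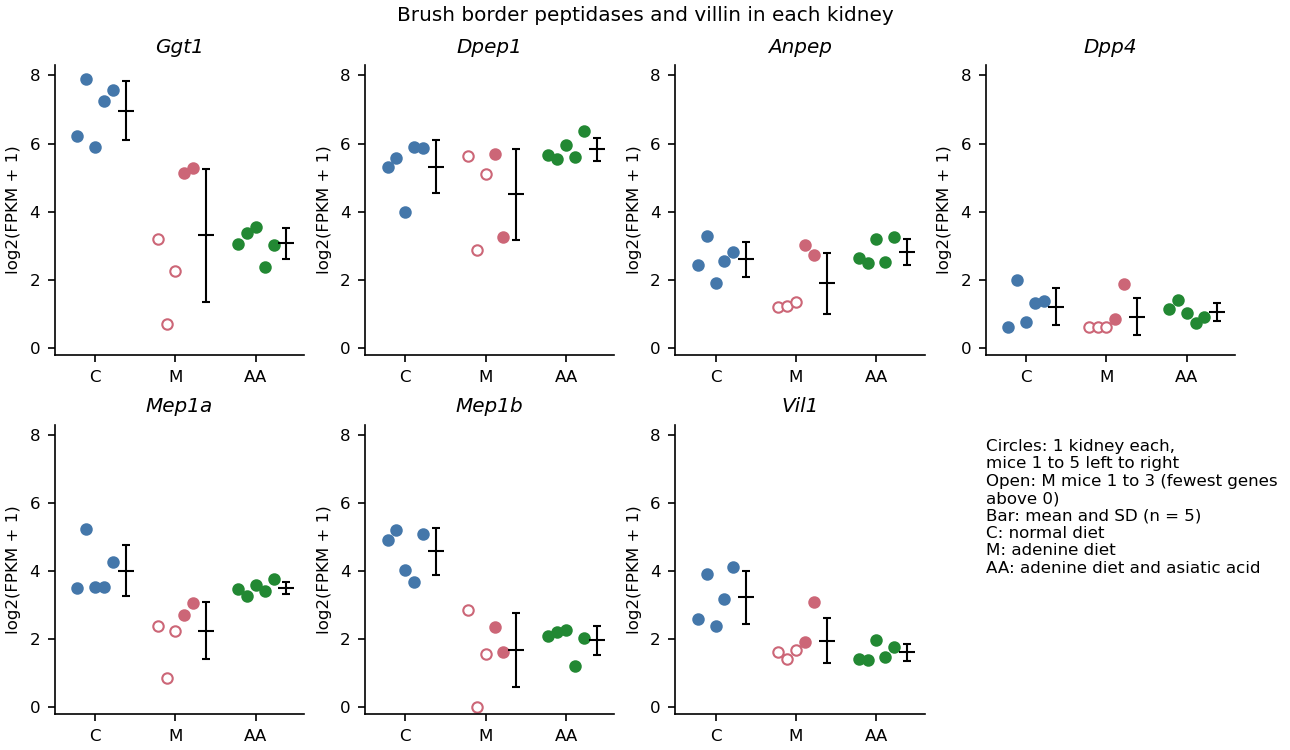
Level of each member in each kidney, as log2(FPKM + 1), for the C, M and AA groups; circles are mice 1 to 5 from left to right, open circles are M mice 1 to 3, and bars are the mean and SD of 5 mice. Ggt1 and Mep1b lay lower in all M and AA kidneys than in all C kidneys, while the Dpep1, Anpep and Dpp4 values of the 3 groups overlapped.

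Ggt1 encodes γ-glutamyltransferase 1, the enzyme that opens glutathione outside the cell by removing its γ-glutamyl group. The gene (ENSMUSG00000006345) lies on the plus strand of chromosome 10 from 75561604 to 75586200, and it shared no 31-base word with transcripts of other genes. FPKM was 73.0, 237, 58.6, 153 and 189 in C mice 1 to 5. In M mice 1 to 5 it was 8.13, 0.617, 3.78, 34.1 and 37.8. The AA mice had 7.38, 9.46, 10.8, 4.20 and 7.06. Every diseased kidney, treated or not, was below the lowest C kidney, and M mice 4 and 5 were higher than all AA mice.

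Mean Ggt1 (± SD, 5 kidneys each) was 142 ± 75.8 FPKM in C, 16.9 ± 17.6 in M and 7.77 ± 2.51 in AA. These values rest on 7997 to 32459 fragments per C library, 22 to 4024 per M library and 291 to 551 per AA library. Ggt1 was lower in M than in C by −3.66 on the log2 scale (SE 0.79, limma adjusted p = 0.0407), and its mean FPKM was 8.41-fold lower. This call was lost with any of C mice 1, 2, 4 and 5 or M mice 1, 2 and 3 left out, where the adjusted p reached 0.123 in limma and the log2 fold change stayed between −4.15 and −3.00. With only M mice 4 and 5 it was −1.76 (limma adjusted p = 0.246). Compared with C, Ggt1 in AA fell by 3.89 on the log2 scale (SE 0.39, limma adjusted p = 0.000119), with a mean 18.3-fold lower, and was called in all 10 fits that left out 1 library. AA vs. M gave −0.23 with a 95% interval from −1.78 to 1.32 (limma adjusted p = 0.862). Set against M mice 4 and 5 alone, the AA group was lower by −2.12 (limma adjusted p = 0.00872).

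Dpep1 encodes membrane dipeptidase 1, which splits the cysteinyl-glycine left by Ggt1 and also turns leukotriene D4 into leukotriene E4. It lies on the plus strand of chromosome 8 from 123186242 to 123201812 (ENSMUSG00000019278) and overlaps the annotated gene Gm20388 on the same strand, which could take part of its reads. Across C mice 1 to 5 the FPKM was 38.8, 46.4, 14.8, 58.2 and 57.3. Across the M mice it was 48.4, 6.39, 33.3, 50.7 and 8.61. In AA mice 1 to 5 it was 50.3, 46.2, 60.8, 48.0 and 81.0. C mice 1 and 3 were lower than every AA mouse, M mice 2 and 5 were lower than all other kidneys, and the other M mice lay within the range of the C group.

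Mean Dpep1 (± SD, 5 kidneys each) was 43.1 ± 17.7 FPKM in C, 29.5 ± 21.2 in M and 57.3 ± 14.4 in AA. None of its differences was called. The log2 fold change was −0.81 in M vs. C (95% interval −2.09 to 0.48, limma adjusted p = 0.521), 1.32 in AA vs. M (0.17 to 2.47, limma adjusted p = 0.104) and 0.51 in AA vs. C (−0.26 to 1.27, limma adjusted p = 0.272). The last of these turned to −0.58 under TPM, where the median of all genes was −0.39. Against M mice 4 and 5, the AA difference was 1.35. Without M mouse 4, Dpep1 was called in AA vs. M (limma adjusted p = 0.0499, the lowest over the 10 fits that left out 1 library).

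Anpep encodes aminopeptidase N, also known as CD13, which removes single amino acids from the amino end of peptides. The gene (ENSMUSG00000039062) is on the minus strand of chromosome 7, from 79821803 to 79861059, and overlaps the annotated gene Gm44974 on the same strand. FPKM was 4.44, 8.87, 2.73, 4.85 and 6.01 in C mice 1 to 5. It was 1.31, 1.34, 1.53, 7.22 and 5.59 in M mice 1 to 5, and 5.20, 4.64, 8.27, 4.79 and 8.65 in AA mice 1 to 5. M mice 1 to 3 formed a low group below every other kidney, and M mice 4 and 5 lay within the range of both other groups. Group means (± SD, 5 kidneys each) were 5.38 ± 2.28, 3.40 ± 2.81 and 6.31 ± 1.98 FPKM for C, M and AA. No comparison was called for Anpep, with a log2 fold change of −0.69 in M vs. C (95% interval −1.62 to 0.23), 0.92 in AA vs. M (0.03 to 1.81) and 0.23 in AA vs. C (−0.39 to 0.84), at limma adjusted p = 0.441, 0.140 and 0.546. The first of these was 0.28 and the second −0.05 with M mice 4 and 5 alone, and the third was −0.73 under TPM. Without M mouse 4, Anpep was called in AA vs. M (limma adjusted p = 0.0483).

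Dpp4 encodes dipeptidyl peptidase 4, also known as CD26, which removes dipeptides from chains that carry proline or alanine next to the first residue. It lies on the minus strand of chromosome 2 from 62330073 to 62412231 (ENSMUSG00000035000), it overlaps the antisense gene Gm13561, and 3.22% of its 31-base words also occur in transcripts of other genes. Dpp4 was the lowest member in each group. FPKM was 0.537, 2.96, 0.715, 1.52 and 1.58 for C mice 1 to 5 and 0.545, 0.545, 0.536, 0.799 and 2.66 for M mice 1 to 5. AA mice 1 to 5 had 1.22, 1.68, 1.05, 0.669 and 0.884. All 3 groups overlapped, and the range over all kidneys was within that of the C group but for M mouse 3. The log2 fold changes were −0.30 in M vs. C (95% interval −1.05 to 0.46), 0.13 in AA vs. M (−0.53 to 0.80) and −0.16 in AA vs. C (−0.75 to 0.42), with limma adjusted p = 0.683, 0.806 and 0.648. The first turned to 0.06 after centring and to 0.14 with M mice 4 and 5, the second to −0.01 under TPM, −0.38 after centring and −0.31 against M mice 4 and 5.

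Mep1a encodes the α subunit of meprin, a zinc endopeptidase that is shed from the membrane unless it is joined to the β subunit. The gene (ENSMUSG00000023914) lies on the minus strand of chromosome 17 from 43474324 to 43502812. C mice 1 to 5 had FPKM of 10.3, 36.2, 10.6, 10.5 and 18.2. M mice 1 to 5 had 4.22, 0.832, 3.71, 5.55 and 7.34. AA mice 1 to 5 had 10.04, 8.67, 11.1, 9.61 and 12.5. The M kidneys were all below the lowest kidney of both other groups, and the AA kidneys lay just below the lowest C kidney or at the lower end of the C range.

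Mean Mep1a (± SD, 5 kidneys each) was 17.2 ± 11.2 FPKM in C, 4.33 ± 2.41 in M and 10.4 ± 1.49 in AA. Between M and C, Mep1a differed by −1.75 (SE 0.46), which was not called (limma adjusted p = 0.0801), and it was −1.12 with M mice 4 and 5. It was called without M mouse 5 (limma adjusted p = 0.0356), with TPM (0.0138) and with all 15 libraries in 1 fit (0.0187). AA kidneys were higher than M kidneys in Mep1a by 1.25 on the log2 scale (SE 0.38, limma adjusted p = 0.0381), a mean FPKM 2.40-fold higher. That call held in 2 of the 10 fits that left out 1 library, those without M mouse 4 or M mouse 5, and was lost in the other fits, where the limma adjusted p lay between 0.0536 and 0.0754. It was also lost with a pseudocount of 0.1, no filter, TPM, omission of mitochondrial genes, centring and library quality weights. With M mice 4 and 5 alone, the difference was 0.62 (limma adjusted p = 0.208). The AA vs. C value was −0.50 (95% interval −1.21 to 0.20, limma adjusted p = 0.238), and with TPM it was −1.56 and called (limma adjusted p = 0.00715).

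Mep1b encodes the β subunit of meprin, which spans the membrane and tethers the α subunit to it. The gene (ENSMUSG00000024313) lies on the plus strand of chromosome 18 from 21061923 to 21100199, it overlaps the pseudogene Gm6378 on the opposite strand, and 2.63% of its 31-base words occur in transcripts of other genes. FPKM was 28.9, 35.5, 15.4, 11.7 and 33.1 in C mice 1 to 5. M mice 1 to 5 had 6.26, 0, 1.93, 4.12 and 2.10, where M mouse 2 was listed at 0. AA mice 1 to 5 had 3.28, 3.59, 3.85, 1.34 and 3.07. The lowest C kidney was above every M and AA kidney, and the M and AA ranges overlapped.

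For Mep1b, the mean FPKM (± SD, 5 kidneys each) was 24.9 ± 10.7 in C, 2.88 ± 2.38 in M and 3.02 ± 0.988 in AA, on 1039 to 3750, 0 to 317 and 72 to 152 fragments per library. Between M and C the log2 fold change came to −2.90 (SE 0.50, limma adjusted p = 0.0216), with a mean 8.65-fold lower. It was lost without C mouse 2, C mouse 5 or M mouse 3 (limma adjusted p = 0.0544, 0.0738 and 0.0736) and kept in the other 7 fits that left out 1 library. Keeping only M mice 4 and 5 gave −2.58 (limma adjusted p = 0.0971). From C to AA, Mep1b fell by 2.61 on the log2 scale (SE 0.33, limma adjusted p = 0.000343), a mean 8.25-fold lower, and was called in all 10 such fits. The AA vs. M value was 0.28 (95% interval −0.71 to 1.28, limma adjusted p = 0.718), and it was −0.14 without M mouse 2 and −0.03 against M mice 4 and 5.

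Vil1 encodes villin, which bundles the actin core of each microvillus. It lies on the plus strand of chromosome 1 from 74409376 to 74435559 (ENSMUSG00000026175) and overlaps Usp37 on the opposite strand. Of its 31-base words, 0.592% occur in transcripts of other genes, mainly Usp37. FPKM was 5.01, 14.2, 4.21, 8.00 and 16.2 in C mice 1 to 5. In M mice 1 to 5 it was 2.11, 1.67, 2.24, 2.77 and 7.57, and in AA mice 1 to 5 it was 1.70, 1.62, 2.95, 1.79 and 2.41. M mouse 5 lay within the C range, the other M mice below it, and all AA mice were below all C mice. Means for C, M and AA (± SD, 5 kidneys each) were 9.53 ± 5.43, 3.27 ± 2.43 and 2.09 ± 0.570 FPKM. From C to AA, Vil1 fell by 1.62 on the log2 scale (SE 0.34, limma adjusted p = 0.00381), a mean 4.55-fold lower, and the call stood in all 10 fits that left out 1 library. The M vs. C value of −1.28 (95% interval −2.20 to −0.37) was not called (limma adjusted p = 0.161), and it was −0.73 with M mice 4 and 5. Without M mouse 5 it was called (limma adjusted p = 0.0407). The AA vs. M value was −0.34 (−1.08 to 0.40, limma adjusted p = 0.535), and it was −0.89 against M mice 4 and 5.

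**Figure D2:**
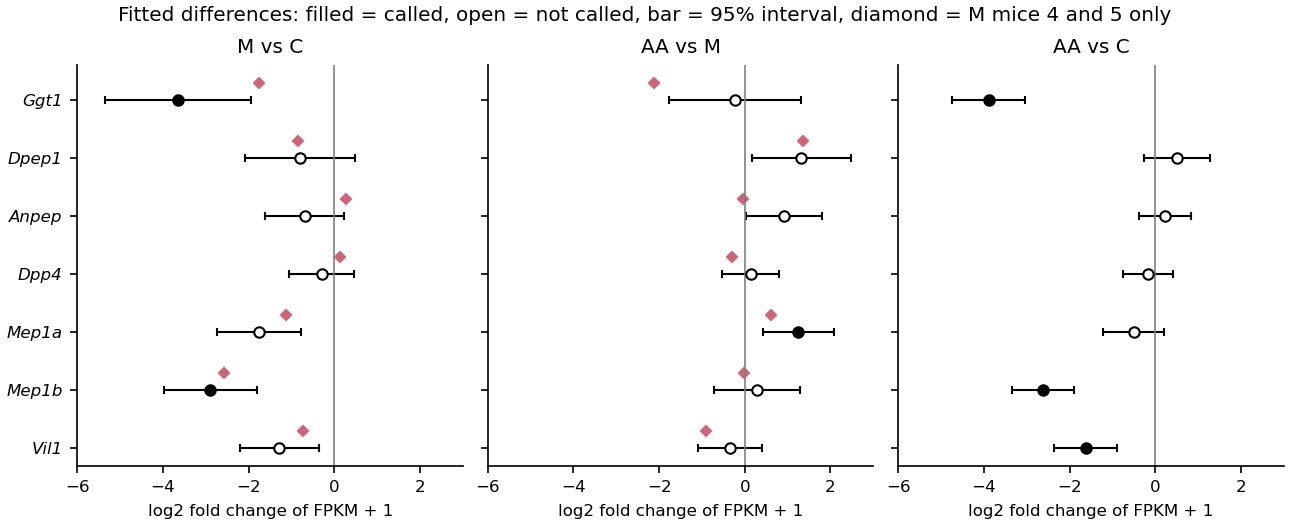
Fitted log2 fold changes of FPKM + 1 for the 7 members in the 3 comparisons; filled circles were called, open circles were not, bars are 95% intervals of the fit and diamonds are values from M mice 4 and 5 alone. Ggt1 and Mep1b lay furthest below 0 in both comparisons with the C group, and Mep1a was the 1 member called in AA vs. M.

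Set against Vil1 of the same kidney, the peptidases did not move as 1 block. For each library, log2(FPKM + 1) of Vil1 was subtracted from that of each peptidase, and groups were compared with two-sided exact permutation tests, 18 in all, for which the raw p is given. The smallest p that 5 against 5 libraries allow is 0.00794, and 13 of the 18 tests had a p of at most 0.05. In AA vs. C, 4 peptidases were higher relative to Vil1 without overlap, by 2.13 for Dpep1, 1.85 for Anpep, 1.46 for Dpp4 and 1.12 for Mep1a (exact p = 0.00794 for each, higher in 5 of 5 AA kidneys). Ggt1 was lower relative to Vil1 by −2.26 (exact p = 0.00794, no overlap), and Mep1b by −0.99 (exact p = 0.0238, with overlap). So relative to villin the glutathione pair parted, with Ggt1 below and Dpep1 above its C level in every AA kidney. Vil1 itself was lower in AA than in C by −1.62, while the median of all genes was 0.09. A gene without change thus also comes out higher relative to Vil1. How many of all genes lay higher relative to Vil1 without overlap was not counted. Without the subtraction, Dpep1, Anpep, Dpp4 and Mep1a were at 0.51, 0.23, −0.16 and −0.50 in AA vs. C, none of them called. Since the 18 tests share the values of Vil1, they are not independent of each other.

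In M vs. C, Ggt1 was lower relative to Vil1 by −2.37 (exact p = 0.00794) and Dpp4 was higher by 0.98 (exact p = 0.00794), both without overlap. Mep1b differed by −1.62 (exact p = 0.0317), which rose to an exact p = 0.0556 with a pseudocount of 0.1 and to 0.0635 without any of C mice 1, 2 and 3 or M mice 2, 3 and 5. Anpep, Dpep1 and Mep1a differed by 0.59, 0.47 and −0.47 (exact p = 0.0952, 0.571 and 0.206), and without C mouse 1 the Anpep value was 0.71 (exact p = 0.0159). In AA vs. M, Mep1a was higher relative to Vil1 by 1.59 without overlap (exact p = 0.00794). Dpep1 differed by 1.66 (exact p = 0.0159), Anpep by 1.26 (exact p = 0.0238) and Dpp4 by 0.48 (exact p = 0.0238, but 0.119 with TPM), while Mep1b and Ggt1 differed by 0.63 and 0.11 (exact p = 0.302 and 0.873). With M mice 4 and 5 alone no p can go below 0.0952. Under that setting the M vs. C values were −1.03 for Ggt1, −1.86 for Mep1b, 0.87 for Dpp4, 1.01 for Anpep, −0.12 for Dpep1 and −0.39 for Mep1a. The AA vs. M values were 1.51 for Mep1a, 2.25 for Dpep1, 0.84 for Anpep, 0.59 for Dpp4, 0.87 for Mep1b and −1.23 for Ggt1. Since Vil1 and Dpp4 are near the pseudocount in many M and AA kidneys, their differences on this scale are compressed.

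**Figure D3:**
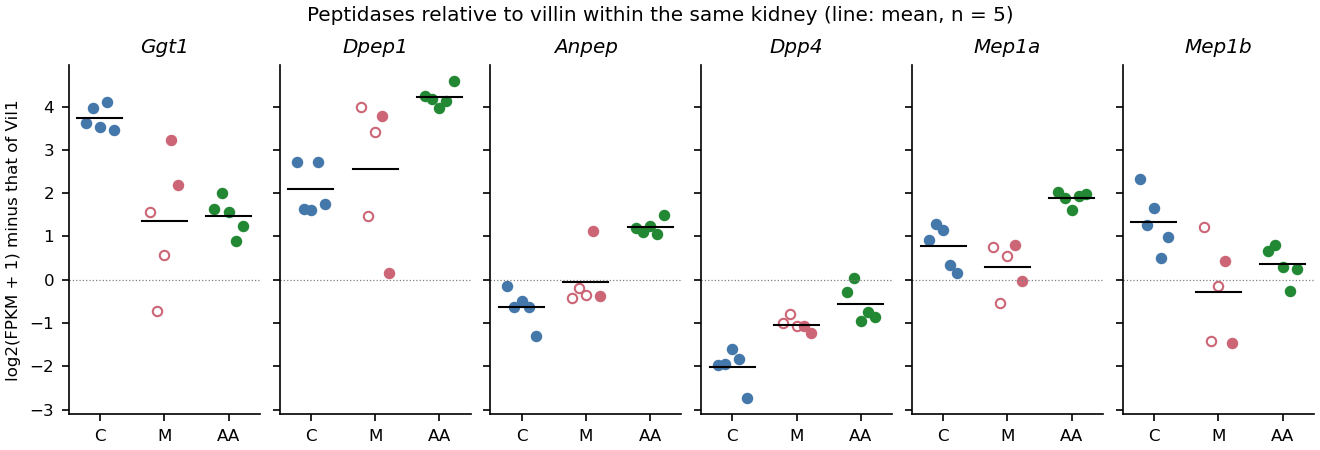
Each peptidase relative to villin within the same kidney, as the difference in log2(FPKM + 1), for the C, M and AA groups; circles are kidneys, open circles are M mice 1 to 3 and lines are means of 5 mice. Dpep1, Anpep, Dpp4 and Mep1a lay higher in all AA than in all C kidneys, and Ggt1 lay lower.

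The order of the members changed with the group. By mean FPKM the C group ran Ggt1, Dpep1, Mep1b, Mep1a, Vil1, Anpep and Dpp4. Ggt1 was above Dpep1 in 5 of 5 C kidneys, while Dpep1 over Mep1b and Mep1b over Mep1a held in 4 of 5. In the AA group the order was Dpep1, Mep1a, Ggt1, Anpep, Mep1b, Vil1 and Dpp4, with Dpep1 above Mep1a in 5 of 5 kidneys, Mep1a above Ggt1 in 4 and Ggt1 above Anpep in 3. In the M group it was Dpep1, Ggt1, Mep1a, Anpep, Vil1, Mep1b and Dpp4, and of these neighbours Anpep was above Vil1 in 1 of 5 kidneys, so that the order of their means was the reverse of that in most M kidneys.

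As a share of the summed FPKM of the 7 genes, Ggt1 held 45.4 to 62.1% in the C kidneys and 5.97 to 12.5% in the AA kidneys, and Dpep1 held 12.2 to 24.1% and 60.9 to 70.1%. Their ranges traded places between the groups. The M kidneys fell between and beyond these ranges, with a Ggt1 share of 5.42 to 52.7% and a Dpep1 share of 12.0 to 70.8%. Anpep rested at 1.87 to 2.76% in C and 6.12 to 8.37% in AA, Mep1a at 4.23 to 9.88% and 10.8 to 13.6%, and Mep1b at 4.73 to 17.97% and 1.90 to 4.73%. The sum itself was 107 to 381 FPKM over the C kidneys, 11.4 to 105 over M and 70.4 to 116 over AA. Such shares do not depend on the scaling of a library, and they are given as a description with no test.

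**Figure D4:**
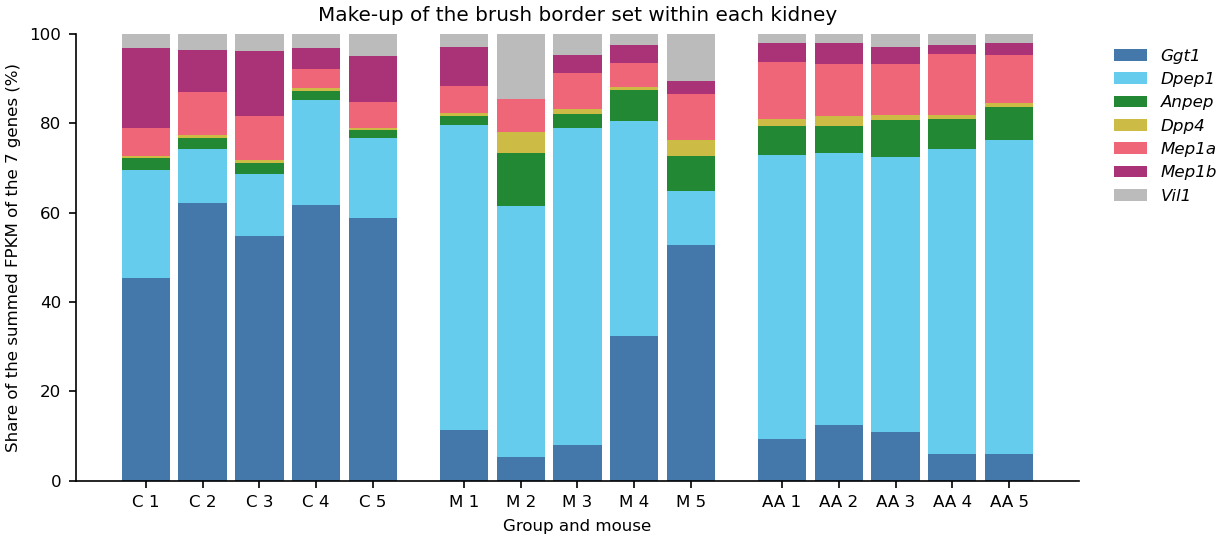
Share of the summed FPKM of the 7 genes held by each member, in percent, 1 bar per kidney. Ggt1 makes up 45.4 to 62.1% of the bar in the C kidneys and Dpep1 60.9 to 70.1% in the AA kidneys, while the M kidneys vary from 5.42 to 52.7% for Ggt1.

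The balance of the meprin subunits, looked at after their values were seen, also differed between kidneys and is given with no test. The ratio of Mep1a to Mep1b FPKM was 0.355, 1.02, 0.685, 0.894 and 0.551 in C mice 1 to 5. It was 3.06, 2.42, 2.89, 7.18 and 4.08 in AA mice 1 to 5. In M mice 1, 3, 4 and 5 it was 0.674, 1.92, 1.35 and 3.49, and M mouse 2 gives no ratio because Mep1b was listed at 0. The β subunit was thus the higher in 4 of 5 C kidneys, and the α subunit was the higher in every AA kidney.

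The neighbourhood of the members was read from lists written for the purpose, whose counts stand beside 1.11% of all genes called lower in M vs. C, 11.7% called higher in AA vs. M and 9.61% called lower in AA vs. C. Of the other membrane peptidases (20 genes), 0 of 18 tested were called in M vs. C in limma, with a median log2 fold change of −0.16. For AA vs. M, 2 of 16 were called, both higher, namely Cpm (carboxypeptidase M), at 1.502 (limma adjusted p = 0.0407), and Ece1 (endothelin-converting enzyme 1), at 1.24 (limma adjusted p = 0.0422). Against M mice 4 and 5 alone, Cpm was at 1.22 and Ece1 at 0.44. For AA vs. C, 1 of 17 was called, which was Ace (angiotensin-converting enzyme), lower by −1.15 (limma adjusted p = 0.00694). The list's median stood at 0.41 for AA vs. M and at 0.38 for AA vs. C. Among peptidases inside the cell, all 20 were tested, and 2 were called lower in M vs. C, Acy1 at −3.20 and Acy3 at −2.96 (limma adjusted p = 0.0194 and 0.0321), or −2.13 and −2.45 with M mice 4 and 5. These aminoacylases free amino acids from their acylated forms. Of the 20, 0 were called in AA vs. M in limma, and in AA vs. C 5 were, all lower, among them Acy1 at −4.18, Acy3 at −2.39, Dpp7 at −2.33 and Cndp2 at −1.61 (limma adjusted p = 0.00011, 0.000753, 0.000621 and 0.00534).

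Of the brush border scaffold (19 genes), 2 of 19 were called lower in M vs. C and 6 of 18 in AA vs. C, with 1 of 18 called higher in AA vs. M. Ush1c, which encodes harmonin of the links between microvilli, was lower in M vs. C by −2.95 (limma adjusted p = 0.0373, and −1.46 with M mice 4 and 5) and in AA vs. C by −2.82 (limma adjusted p = 0.000486). Myo7b, a myosin of the same links, was lower in AA vs. C by −2.09 (limma adjusted p = 0.000487), and the villin-like gene Vill by −2.92 (limma adjusted p = 0.000381). The list's median was −0.80 for M and −0.70 for AA kidneys relative to C, and −0.03 for AA relative to M kidneys.

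Transport of amino acids and peptides, including carriers that take up what the peptidases release, was covered by 15 genes in the table, all tested. In M vs. C 4 were called, all lower, with a median of −1.20, and in AA vs. C 5 were, all lower, with a median of −0.68. The neutral amino acid transporter Slc6a18 was at −3.52 and −3.13 in these comparisons (limma adjusted p = 0.0227 and 0.000526). Slc7a9, the light chain of the cystine transporter, was at −2.59 and −2.21 (limma adjusted p = 0.043 and 0.00402). With M mice 4 and 5 the M vs. C values were −1.97 for Slc6a18 and −1.59 for Slc7a9. The peptide transporter Slc15a2 was lower in AA vs. C by −1.91 (limma adjusted p = 0.00122). A further call, higher, was made among the 15 in AA vs. M, and the median was 0.38.

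Genes of the glutathione cycle other than Ggt1 and Dpep1 numbered 16. In M vs. C 1 was called, lower, namely the secreted glutathione peroxidase Gpx3 at −2.99 (limma adjusted p = 0.0229, and −2.36 with M mice 4 and 5). Between AA and C, 5 of 15 were called, all lower, including Gpx3 at −2.85, the transferase Gstm1 at −1.58, glutathione synthetase Gss at −2.13 and 5-oxoprolinase Oplah at −2.34 (limma adjusted p = 0.000813, 0.000491, 0.00131 and 0.00146). Between AA and M, 0 of 15 were called in limma, and the median was 0.16.

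Markers of some cell types differed between these groups, and their part in the results was not tested. Of the 15 proximal tubule markers, 10 were called lower in M vs. C (median −3.10) and 11 in AA vs. C (median −2.03), and 1 was called higher in AA vs. M (median 0.48). Their summed level did not overlap between the C group and either other group, while that of the M and AA groups did. The same held for 8 collecting duct markers, with 45.8 to 492, 6.79 to 26.4 and 10.2 to 23.8 summed FPKM for C, M and AA, of which 7 were tested and 3 were called lower in each comparison with C. The summed FPKM of 12 macrophage and myeloid markers was 20.7 to 125 for C, 168 to 480 for M and 116 to 179 for AA kidneys. For 8 fibroblast and pericyte markers it was 66.9 to 150, 133 to 444 and 282 to 484. For 12 injured tubule markers, it was 49.3 to 422, 214 to 514 and 194 to 247, with overlap between all groups. Podocyte sums also overlapped (5.59 to 16.7 for C, 2.38 to 24.8 for M and 9.22 to 15.1 for AA), as did those of endothelium and lymphocyte markers. Avpr2 of the collecting duct list was at 0 in all AA kidneys.

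The genes with the most similar profile were sought for each member among 11527 genes with a mean FPKM of at least 1. Likeness was the root-mean-square difference of log2(FPKM + 1) over the 15 libraries, each gene centred on its mean, and up to 3 genes are named per member. The closest were Wnk4 (0.47), Kng2 (0.49) and Ccdc107 (0.55) for Ggt1, and Cpm (0.39), Lama2 (0.39) and Ak4 (0.43) for Dpep1. For Anpep they were Notch3 (0.24), Tsc1 (0.34) and Mettl1 (0.34), and for Dpp4 they included Pik3ca (0.25) and Dab2 (0.25). Mep1a was closest to Atp6v1b1 (0.37), Asl (0.38) and Crot (0.39), Mep1b to Acy3 (0.61), Ldhd (0.62) and Acsm1 (0.62), and Vil1 to Aoc2 (0.28), Gm10766 (0.28) and Tmem53 (0.29). Low genes vary little on this scale and so come close to many others. Within the set, the closest pair was Anpep and Dpp4 (0.56) and the furthest was Ggt1 and Dpep1 (2.13). The meprin subunits differed by 1.01, about as far as Ggt1 from Mep1b (1.03).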

How the data were processed

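Kidney RNA of 15 mice (5 per group) was sequenced by the authors as poly-A libraries, cleaned with fastp, aligned with HISAT2 2.0.5 and counted with featureCounts 1.5.0-p3, per the labels' processing notes and the methods. The values deposited by the authors are FPKM, and 54532 genes are listed, of which 37 were absent from GENCODE M21. FPKM multiplied by exon length should sum to the same total in each library, but relative to that total came to 0.435 to 1.93. A further scaling that the sources do not describe is therefore part of the values. It went with the groups, with medians of 0.652 for C (0.435 to 0.708), 1.31 for M (0.636 to 1.54) and 1.14 for AA (0.674 to 1.93). Relative to all fragments, deposited values of most M and AA libraries are thus raised against C, which the TPM setting removes. The sum also went with the mitochondrial share, from 0.435 at 53.0% in C mouse 3 to 1.93 at 87.2% in AA mouse 2. TPM totals include mitochondrial genes, so a higher mitochondrial share lowers the TPM of all other genes. With mitochondrial genes omitted and totals made equal, the M vs. C medians were −1.20 for the members and −0.10 for all genes. Whole fragments were recovered within 0.02 for 97.6 to 98.9% of values of up to 20 fragments. These numbers serve only to show depth.

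Each comparison used limma 3.58.1 in R 4.3.3 (lmFit, then eBayes with trend) on log2(FPKM + 1) of the deposited values for the 10 libraries compared, with no replicate block, for genes above 0 in at least 5 of them. The fit was tested on simulated data. Fold changes on this scale understate those of low genes. The study's thresholds were kept, and its own test, DESeq2 on counts, was not used here. The mice of a group are separate animals. Exact permutation tests used scipy 1.17.1 in Python 3.11.15. All 7 members are named, with up to 4 called genes per list by smallest adjusted p and up to 3 similar genes per member; some items these rules select are not reported here. Members and lists were chosen with earlier results of these data known. Alternatives were a pseudocount of 0.1, filters, TPM, omission of mitochondrial genes, centring, all 15 libraries in 1 fit, library weights, a replicate block, only M mice 4 and 5, and each library left out.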

Additional observations from a re-analysis of the deposited data

Results flagged for a closer look

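In 21 sets of 5 kidneys (7 genes in 3 groups), the highest or lowest value was compared with the rest by Dixon's ratio. The ratio was taken on log2(FPKM + 1), not on the FPKM printed here. By chance about 1 set in 20 is marked, and 2 exceeded the critical value of 0.71. Mep1b in AA mouse 4 had an FPKM of 1.34, below 3.07 to 3.85 in the other AA kidneys (ratio 0.760). Dpp4 in M mouse 5 had an FPKM of 2.66, above 0.536 to 0.799 in the other M kidneys (ratio 0.818).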

How the results depend on the processing

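The calls of Ggt1, Mep1b and Vil1 in AA vs. C held under each alternative run, and no call of the other comparisons did. In M vs. C, members called were 0 with a pseudocount of 0.1, 0 with no filter, 4 with TPM, 3 with all 15 libraries in 1 fit, 1 with library weights and 0 with M mice 4 and 5, against 2, and their median was −2.22 with TPM. All genes called, against 291, were 448 at a mean FPKM of at least 1, 33 with no filter, 1609 with TPM (1.93% higher), 786 with all 15 libraries in 1 fit, 188 with weights, 152 with the replicate block and 0 with M mice 4 and 5 (2489 at an unadjusted p under 0.05 in limma). Centring gave 38.9% higher calls against 19.6%. In AA vs. M, members called went from 1 to 0 with a pseudocount of 0.1, no filter, TPM, no mitochondrial genes, centring, weights and the block, and with M mice 4 and 5 the 1 called was Ggt1. All genes called went from 2533 to 422 with TPM and 1656 with M mice 4 and 5, and 91.6% of calls higher became 43.1% after centring, 67.4% with weights and 27.8% with M mice 4 and 5. In AA vs. C all genes called went from 4346 to 7474 with a pseudocount of 0.1 and 6785 with TPM (12.7% higher against 51.6%, or 40.1% after centring), and the members' median to −1.56 with TPM. Differences from Vil1 with p of at most 0.05 went from 13 to 6 with M mice 4 and 5, where the recomputed tests cannot pass.

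Leaving out each library gave 4 (without C mouse 5) to 954 (without M mouse 5) genes in M vs. C with 0 to 4 members, 1805 to 2897 in AA vs. M with 0 to 3 members, and 3463 to 4770 in AA vs. C with 3 members each time. The M vs. C count was also under 291 by over 1.5 times without C mouse 2 (75), C mouse 4 (157), M mouse 1 (85), M mouse 2 (36) or M mouse 3 (18).

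Uncalled values changed sign as follows. Dpp4 became 0.062 (centring) and 0.14 (M mice 4 and 5) in M vs. C, −0.011 (TPM), −0.38 (centring), −0.00055 (weights) and −0.31 (M mice 4 and 5) in AA vs. M, and 0.028 without C mouse 2 in AA vs. C. With M mice 4 and 5, Anpep became 0.28 (M vs. C) and −0.051 (AA vs. M), and it was −0.73 with TPM in AA vs. C, where Dpep1 became −0.58. Mep1b in AA vs. M became −0.23 (centring), −0.20 (weights), −0.030 (M mice 4 and 5) and −0.14 (without M mouse 2, the lowest of −0.14 to 0.58 over the libraries left out), and Ggt1 0.23 and 0.26 without M mouse 4 or 5 (−0.88 to 0.26). Relative to Vil1, Ggt1 in AA vs. M became −1.23 (M mice 4 and 5), −0.41 and −0.09 (without M mouse 2 or 3) and −0.02 (without AA mouse 2), within −0.41 to 0.58, and Dpep1 in M vs. C −0.12 (M mice 4 and 5). The causes were not tested.

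Mouse numbers did not pair the kidneys. Same-numbered deviations correlated at −0.07 to 0.22 in M vs. C, −0.08 to 0.05 in AA vs. M and −0.13 to 0.18 in AA vs. C, and 2, 0 and 1 of 5 mice correlated best with their own number. With the replicate block, members called were 2, 0 and 3.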
